A study of Schizosaccharomyces pombe with 16 samples.

Results

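The antisense non-coding RNAs of Schizosaccharomyces pombe were followed across carbon sources and in cells lacking the carbon catabolite repressor Scr1. A feature was taken as antisense where it was annotated as a non-coding RNA (SPNCRNA), shared at least 1 base with a coding gene transcribed from the other strand, and shared none with a coding gene on its own strand. This rule, which used positions and no counts, found 815 of the 1542 annotated non-coding RNAs, and of 7019 features in the count table. They lay on chromosomes I (362), II (299) and III (154). The table held 5172 protein-coding genes, and 433 non-coding RNAs lay clear of any coding gene on either strand.

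RNA-seq was performed on ribosome-depleted total RNA from cells grown in YES medium with 3% glucose at 32 °C, washed, and shifted for 4 h at 32 °C to YES with 3% glucose, to YES with 3% sucrose, to a mixture of 3% glycerol and 0.1% glucose ("glucose-deficient") or to glycerol alone at 3% ("glucose-starved"). Only the stranded libraries can separate an antisense RNA from the gene beneath it, so the 11 of them were analysed and the 5 unstranded ones were not. The 11 comprised wild type cells (strain Y44, h-) in glucose (1 library), sucrose (1), glucose-deficient (1) and glucose-starved medium (2), and 6 scr1- mutant libraries, 3 in glucose and 3 in sucrose. Of each 3, 1 was the disruption scr1::ura4+ (strain D59, h- ura4-d18 leu1-32 ade6-m216) and the others were deletion strains scr1::kanMX6+, D163 for replicate 1 and D165 for replicate 2. By the labels the disruption strain also differed from wild type at the ura4, leu1 and ade6 markers, and no other allele is listed for the deletion strains, haploid spores of a transformed diploid. The study's strain list and its methods differ on the mating type of D163, and D165 is h-. Each pre-culture was split across the media, so glucose and sucrose libraries of a strain may share a culture. The 2 wild type libraries in glucose and sucrose, both glucose-sufficient, served together as the reference. The wild type glucose and sucrose libraries, both disruption libraries and starved replicate 1 came from one library construction batch (B). The deficient library, starved replicate 2 and the 4 deletion libraries came from the other (C). Total counts ran from 14305848 to 15961948 a library, so that 3 counts, taken as the floor, corresponded to between 0.1676 and 0.2569 counts per 1e+06 (CPM, with library sizes scaled by TMM). Counts on the scr1 feature were 20.2 and 31.8 CPM in the wild type reference libraries and between 87.2 and 119.9 CPM in the mutants. That feature extends past the coding sequence that was disrupted or replaced, so it does not check the labels.

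An antisense RNA is transcribed from the strand opposite a gene, often from a start of its own within or downstream of that gene. In fission yeast many are kept low by the nuclear exosome, by RNA interference and by nucleosome-organising factors. Some act on the gene beneath them through transcriptional interference or chromatin, while others have no known function. Carbon catabolite repression keeps genes for hexose uptake, gluconeogenesis and respiration low while glucose is present. Scr1, a zinc finger repressor, and Rst2, a zinc finger activator, act on that process.

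The antisense RNAs were between 76 and 5317 bases long, with a median of 1252. By their longest overlap, 304 ran over the 5′ end of the sense gene, 188 over its 3′ end, 219 lay wholly inside it and 104 covered it end to end. A single sense gene lay beneath 624 of them, 2 genes beneath 181 and 3 beneath 10. The sense gene with the longest overlap is used here as the partner, which gave 761 different genes. On their own strand 691 overlapped no other annotated feature. The other 124 shared sequence, and so reads, with a neighbouring non-coding RNA, as SPNCRNA.1311 and SPNCRNA.293 did over pfl7.

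The starts of 5 antisense RNAs on which the results turn are shown from 100 bases before the annotated start to 50 bases into the RNA, 5′ to 3′ on the antisense strand, with the first 50 bases of the RNA in capitals. They were read from RefSeq's ASM294v3 assembly at loci whose RefSeq coordinates equalled those of the count table. The first pair started inside the coding sequence of a gene for sugar use, namely ght4, a hexose transporter, and eno102, an enolase. SPNCRNA.770 started inside gar2. SPNCRNA.1558 and SPNCRNA.1223 had the largest rises that also appeared in the mutants. The windows of the last pair held no annotated coding or untranslated sequence.
SPNCRNA.1319: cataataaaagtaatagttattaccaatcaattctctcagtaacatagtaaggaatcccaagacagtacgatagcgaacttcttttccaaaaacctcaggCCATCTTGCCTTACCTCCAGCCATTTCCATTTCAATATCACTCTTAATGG
SPNCRNA.1302: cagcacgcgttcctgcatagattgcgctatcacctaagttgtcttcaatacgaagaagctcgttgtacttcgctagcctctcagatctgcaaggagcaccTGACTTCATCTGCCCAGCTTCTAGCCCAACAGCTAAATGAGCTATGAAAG
SPNCRNA.770: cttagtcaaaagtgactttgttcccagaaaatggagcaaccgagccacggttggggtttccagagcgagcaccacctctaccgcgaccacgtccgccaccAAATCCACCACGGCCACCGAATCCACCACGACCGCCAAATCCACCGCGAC
SPNCRNA.1558: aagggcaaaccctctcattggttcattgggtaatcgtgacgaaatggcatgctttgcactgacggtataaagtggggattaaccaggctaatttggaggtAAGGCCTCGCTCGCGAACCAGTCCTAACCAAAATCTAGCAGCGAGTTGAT
SPNCRNA.1223: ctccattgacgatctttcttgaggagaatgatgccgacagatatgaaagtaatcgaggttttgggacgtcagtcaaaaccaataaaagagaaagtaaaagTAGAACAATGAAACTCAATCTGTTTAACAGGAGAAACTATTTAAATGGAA
Their positions were chrII:158267-158416 (- strand), chrII:58353-58502 (+ strand), chrI:1898877-1899026 (- strand), chrII:2887091-2887240 (- strand) and chrIII:1722827-1722976 (- strand), in that order. The letters TATAAA began 35 bases before the start of SPNCRNA.1558. The ATF/CREB letters TGACGT lay on the reverse strand in SPNCRNA.1223, also beginning 35 bases before the start. The letters CCCCTC, which Rst2 is known to bind, were in none of the 5 windows. CCAAT, the box of the HAP complex, was on either strand in the windows of SPNCRNA.1319, SPNCRNA.1558 and SPNCRNA.1223.

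Each motif was searched separately on both strands in the windows of the 778 antisense RNAs whose coordinates matched. CCCCTC was in 1.29% of these and in 1.18% of the same windows at 5151 protein-coding genes. TGACGT was in 4.11% of antisense and 3.94% of coding windows, TATAAA in 23.4% and 27.5%, and CCAAT in 25.8% and 22.9%. Of the 199 windows whose RNA rose in starved medium, as defined below, 6 held CCCCTC and 15 held TGACGT. Of the 136 whose RNA fell, 0 held CCCCTC and 7 held TGACGT, and of the 400 not called, 3 and 7 did. CCAAT was in 59 of the 199, 36 of the 136 and 93 of the 400. These are descriptions of letters in a short window and were not tested.

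Antisense RNA was scarce relative to the genes it overlapped. Summed over the 815, it came to 6961 and 7231 CPM in the glucose and sucrose libraries of wild type cells. The deficient library held 5703 CPM, starved replicates 1 and 2 held 14110 and 11250 CPM, and the 6 mutant libraries between 5569 and 6154 CPM. By this sum both starved libraries lay above all others and every mutant library lay below both wild type reference libraries. The sum is weighted towards abundant RNAs and counts shared reads more than once. The median antisense RNA had 4.19 and 4.32 CPM in the glucose and sucrose reference libraries. In starved replicate 1 it had 5.11 CPM, but in replicate 2 only 3.08 CPM, below the reference. As a share of all counts, the antisense RNAs took 0.832% and 0.824% in the reference and between 0.522% and 0.622% in the mutants. This difference had an exact two-sided permutation p of 0.0714, the smallest that 6 libraries against 2 can give. That test treats the libraries as exchangeable. The deletion libraries are of batch C, however, and glucose and sucrose libraries of a strain may share a culture, so it does not measure variation between independent cultures. Within batch B alone the disruption libraries stood at 0.522% and 0.547%. Counting error on such a share was at most 0.0059 percentage points (margin of the 95% Wilson interval). In the unstranded libraries, where reads from the sense gene are counted on the antisense feature as well, the share was 5.52% to 5.88%.

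**Figure D1:**
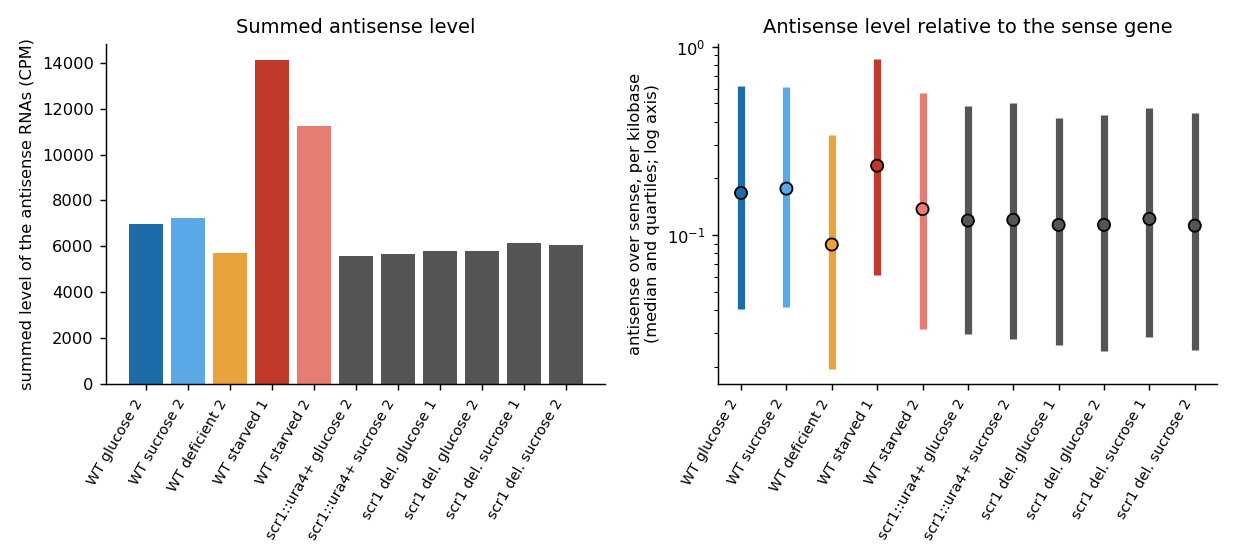
Left, summed level of the 815 antisense RNAs in CPM in each of the 11 stranded libraries; right, antisense over sense level per kilobase on a log axis, with the median as a point and the quartiles as a bar. The 2 starved libraries have the highest sums, 14110 and 11250 CPM, and the deficient library has the lowest median ratio, 0.089.

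Per kilobase, the median antisense RNA stood at 0.167 and 0.176 of its sense gene in the reference libraries, 0.089 in the deficient library, and 0.233 and 0.137 in starved replicates 1 and 2. In the mutants this ratio lay between 0.112 and 0.122. An antisense RNA exceeded its sense gene, per kilobase, at 141 and 147 loci in the reference libraries and at 186 and 145 in the starved ones. Reads from the wrong strand set a lower limit to such ratios. At 3 very highly expressed genes with an antisense RNA almost wholly inside them, that RNA bounds the share of wrong-strand reads. SPNCRNA.1376 inside tef103, a gene for translation elongation factor EF-1 alpha, stood at 0.0179% to 0.0532% of the sense level, and SPNCRNA.92 inside pma1, the plasma membrane proton pump gene, at 0% to 0.106%. SPNCRNA.639 inside mcp60, a mitochondrial chaperonin gene, had a median of 0.0537% but reached 3.21% in starved replicate 1 and was also raised in replicate 2, so it gives no tight bound there. Dropping the calls on RNAs at or below 0.1% of their sense gene left every count of calls given below unchanged but 1, the number higher in starved than in deficient medium, which went from 216 to 215.

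The highest levels per kilobase belonged to 4 overlapping RNAs over eta2, an RNA polymerase I termination factor, and to SPNCRNA.906 over the 3′ end of pdi4, a protein disulfide isomerase. SPNCRNA.872, which covered eta2, had 275 and 307 CPM in the reference libraries, 439 in the deficient library, 728 and 545 in the starved ones and 164 to 223 in the mutants. The eta2 gene itself stayed between 0.787 and 2.81 CPM in all 11, so the antisense strand was the one expressed at this locus. SPNCRNA.906 had 52.5 and 66.7 CPM in the reference, 42.4 in deficient, 706 and 766 in starved and 31.9 to 54.5 in mutant libraries. Its log2 fold change in starved medium was 3.69 ± 0.24 (SE; adjusted p = 3.8e-05, edgeR quasi-likelihood test). It lay over only 55 bases of pdi4, which fell by 1.74 ± 0.32.

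To ask which antisense RNAs respond to glucose, the 2 starved libraries were compared with the 2 reference libraries in one edgeR fit over all 6585 features that passed a low-count filter, with batch as a term. A feature was called higher or lower at an adjusted p under 0.05 and a log2 fold change past 1. Of the 815, 767 passed the filter. The other 48 were not tested, 6 of them for want of a single count in any of the 11 libraries. In starved medium 211 of 767 (27.5%) rose and 143 (18.6%) fell, against 20.1% and 20.2% of all features tested. Among protein-coding genes 18.0% rose and 20.8% fell, and among non-coding RNAs clear of coding genes 28.6% and 25.8%. The median log2 change was 0.25 over the antisense RNAs and -0.04 over all features. This lean towards rises was not kept without starved replicate 1. Leaving out either starved replicate also rests the batch difference on the mutants alone, disruption (B) against deletion (C). The effects of the library and of the batch term are thus mixed in both cases. Without starved replicate 1, 148 rose and 217 fell, with a median of -0.35, and without starved replicate 2 the counts were 271 and 139. Scaling by library totals instead of TMM gave 163 and 176, and moved the median of all features to -0.39 and that of the antisense RNAs to -0.08. Between the starved libraries, which also differed in batch, the median antisense RNA was 0.61 higher on the log2 scale in replicate 1, against -0.09 over all features. Inside batch B, starved replicate 1 against the reference gave the fitted sign for all 354 calls. These libraries are part of the fit, so this and the within-batch signs given further on are no separate evidence.

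**Figure D2:**
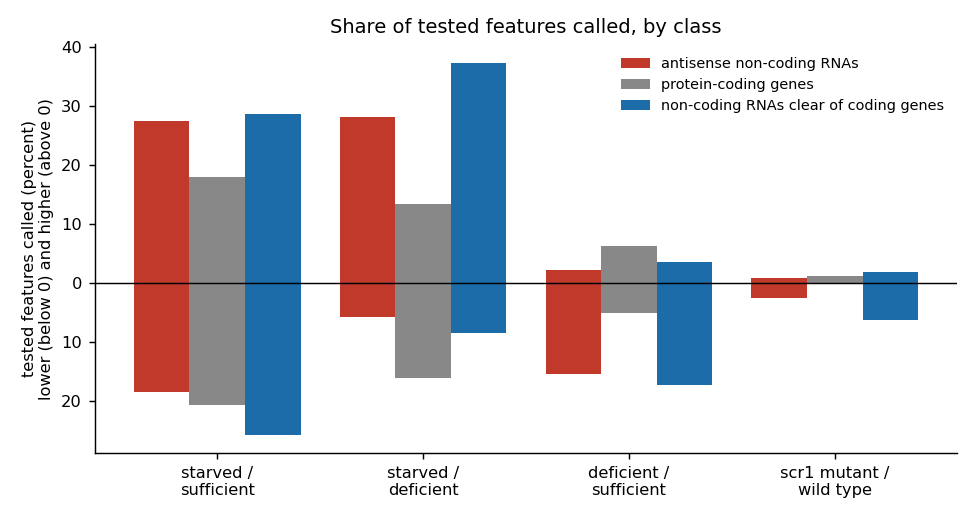
Percent of tested features called higher (above 0) or lower (below 0) in 4 comparisons, for antisense non-coding RNAs, protein-coding genes, and non-coding RNAs clear of coding genes. Antisense RNAs were called higher in 27.5% and lower in 18.6% of cases in starved against sufficient medium, and lower in 15.5% in deficient medium.

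The largest rises began near the floor. SPNCRNA.1223, over SPCC191.10, a locus known as a promoter element of inv1, the invertase gene, had 0.168 and 0.480 CPM in the reference, 0.548 in deficient, and 164 and 31.9 in starved libraries. Its log2 fold change was 8.59 ± 0.76 (adjusted p = 0.00012, edgeR), while SPCC191.10 itself changed by 3.45 ± 0.95, a call lost in 3 of 19 other settings. It was also high in every mutant, at 19.2 to 27.9 CPM, so it was low only in wild type cells given some glucose or sucrose. SPNCRNA.1558 over qcr10, a subunit of the respiratory cytochrome bc1 complex, had 0.559 and 0.600 CPM in the reference, 2.26 in deficient and 110 and 73.8 in starved libraries (log2 fold change 7.25 ± 0.43, adjusted p = 3.0e-05, edgeR). The qcr10 gene did not move with it, standing at 261 and 309 CPM in the reference and 334 and 370 in starved libraries.

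SPNCRNA.931 lay inside grx2, a glutaredoxin gene. It had 0 and 2 counts in the reference libraries, 6 in the deficient one, and 113 and 637 in the starved ones, which is 7.41 and 54.5 CPM. The pooled ratio was 481 with a counting interval from 133 to 3982, and the starved libraries themselves differed several-fold. SPNCRNA.1123 had 2 and 1 counts in the reference and 89 and 108 in starved libraries, a pooled ratio of 84.3 with a counting interval from 28.4 to 412, and its call was lost without starved replicate 1. It overlapped the gene for Lat1, of the pyruvate dehydrogenase complex, by 5 bases only. The remaining large rises were SPNCRNA.1323 over dfg502, an alpha-mannosidase (6.78 ± 0.86), SPNCRNA.1328 over the autophagy gene atg38 (6.67 ± 0.42), and SPNCRNA.1046 over snf21, the RSC remodelling ATPase (5.89 ± 0.58). At none of these was the sense gene called. In the mutants these last 5 RNAs stayed at or under 0.721 CPM.

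The largest fitted fall was that of SPNCRNA.1487, which covered mag2, a DNA-3-methyladenine glycosylase gene. It had 50.2 and 47.4 CPM in the reference, 16.9 in deficient and 2.23 and 4.28 in starved libraries, a change of -5.26 ± 0.53 (adjusted p = 0.0002, edgeR). That size rested in part on the batch term, since its CPM values fell by less than those of SPNCRNA.1461, named next. SPNCRNA.1461, inside the prefoldin gene pfd1, went from 36.1 and 42.2 CPM to 0.787 and 1.20 (-5.24 ± 0.33), and SPNCRNA.1192 inside wtf11, a wtf element, from 14.5 and 15.9 to 0.131 and 1.11 (-4.62 ± 0.72). Both were intermediate in the deficient library, at 6.30 and 1.78 CPM. SPNCRNA.1598 at the peptide transporter gene ptr2 (-4.12 ± 0.36, an overlap of 3 bases), SPNCRNA.1683 at ptf2 (-3.87 ± 0.68), SPNCRNA.1139 over the mitochondrial ribosomal protein gene mrpl4 (-3.86 ± 0.39) and the pair over pfl7, a cell surface glycoprotein gene (-3.65 ± 0.27 and -3.64 ± 0.27), followed. Beside a call, naming required that the libraries compared did not overlap, which held for 36.5% of all features upwards and 40.2% downwards. In the pfl7 pair the deficient library went the other way, to 36.9 CPM from 9.67 and 17.3 for SPNCRNA.1311.

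**Figure D3:**
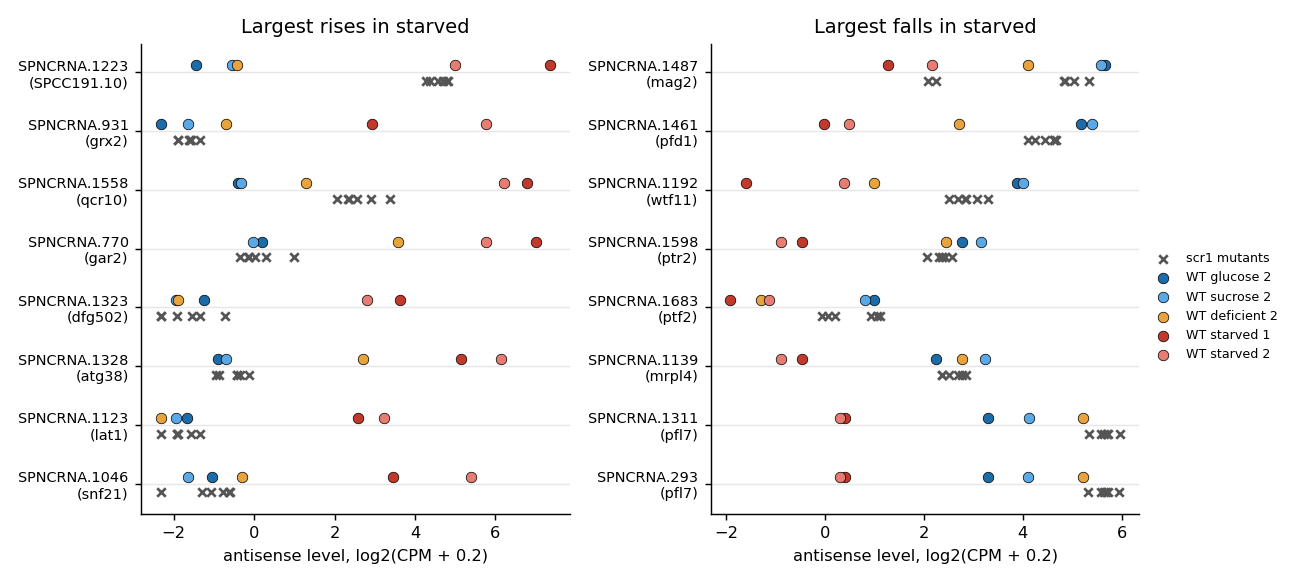
Level of 8 antisense RNAs of strongest rise and 8 of strongest fall in starved medium, as log2(CPM + 0.2), with wild type libraries as coloured points and the 6 scr1- mutant libraries as crosses. In every row both starved libraries lie to one side of both glucose-sufficient wild type libraries.

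Antisense and sense changes were then set side by side at the 761 loci where both RNAs were tested. Both were called at 163 loci, in opposite directions at 71 and in the same direction at 92. Neither these counts nor the like ones further on were set against those that the separate call rates of the strands would give. The antisense RNA rose and the gene fell at 44, the reverse held at 27, both rose at 45 and both fell at 47. The antisense RNA alone was called at 188, rising at 120, and the gene alone at another 163. Across all loci the changes had a Pearson r of 0.08 and a Spearman rho of 0.08, given as a description, since loci share their libraries and are not replicates. Where the antisense RNA rose, the median change of the sense gene was 0.01, and where it fell, -0.29, against -0.18 at all 761.

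The picture differed by how the RNAs overlapped, although this was not tested. Where the antisense RNA ran over the 5′ end of the gene (292 loci), r was 0.34, with 49 loci called in the same direction and 21 in opposite ones. Inside the gene (190 loci) r was -0.03, over its 3′ end (179) -0.07, and where it covered the gene (100) -0.12, with 8 same and 13 opposite. Keeping only RNAs that lay at least 50% over the gene left 61 opposite and 63 same. Without starved replicate 1 there were 69 opposite and 104 same, and without replicate 2 there were 98 of each.

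**Figure D4:**
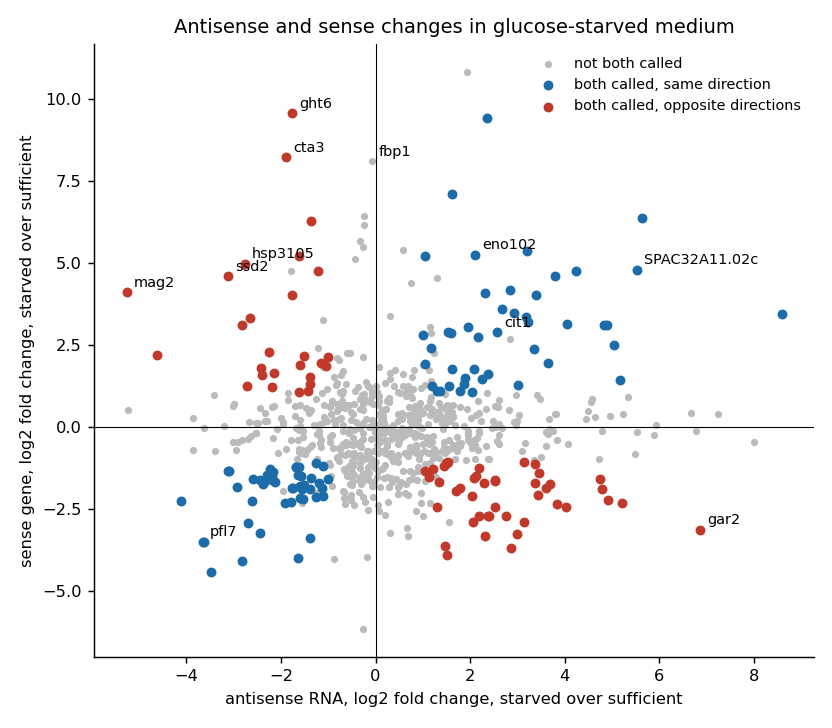
Log2 fold change in starved over sufficient medium of each antisense RNA (horizontal) and its sense gene (vertical) at 761 loci. Red points (71) were called in opposite directions and blue points (92) in the same direction, and the cloud as a whole shows little slope, with r = 0.08.

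The strongest opposite pair with a rising antisense RNA was at gar2 (chrI:1897448-1899491), which encodes nucleolin, an rRNA processing factor. SPNCRNA.770 (chrI:1897289-1898926) had 0.95 and 0.779 CPM in the reference, 11.7 in deficient and 128 and 54.2 in starved libraries, and 0.577 to 1.78 in the mutants. The gar2 gene had 483 and 452 CPM in the reference, 149 in deficient, 56.6 and 53.4 in starved and 488 to 588 in mutant libraries. The 3 media thus fell in the same order, inverted, on the 2 strands, and per kilobase the antisense RNA went from 0.00245 and 0.00215 of the gene to 2.82 and 1.27 times its level. The changes were 6.86 ± 0.59 (adjusted p = 0.0001, edgeR) and -3.14 ± 0.17. In the deficient library they were 4.19 ± 0.76 (adjusted p = 0.015, edgeR) and -1.76 ± 0.23.

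The others were, in order, at mta1 (S-methyl-5-thioadenosine phosphorylase), wis2 (a cyclophilin), sda1 (of a conserved ribosome biogenesis family) and nop12 (an RNA-binding protein of rRNA maturation). There SPNCRNA.686, SPNCRNA.1036, SPNCRNA.1354 and SPNCRNA.562 rose by 2.98 ± 0.64, 3.15 ± 0.60, 2.87 ± 0.42 and 2.75 ± 0.77. Their genes fell by 3.28 ± 0.24, 2.90 ± 0.39, 3.69 ± 0.32 and 2.72 ± 0.17. These antisense RNAs were far lower than SPNCRNA.770, and SPNCRNA.562 rested on 22 and 5 counts in the starved libraries against 3 and 4, a call lost in 4 of 18 other settings. SPNCRNA.1354 began downstream of gid9, with a gap of 10 bases. The gid9 gene itself rose by 2.725, from 27.1 and 27.4 CPM in the reference to 159 and 167 in starved libraries. Whether reads running on from gid9 contributed to the rise of SPNCRNA.1354 was not tested. Of 131 ribosomal protein genes tested, 64 fell and 0 rose, with a median of -1.19, against 20.2% and 20.1% of all features. Antisense RNAs lay over 11 of them, of which 3 rose and 2 fell, with a median of 0.38, which is near the 27.5% and 18.6% of all antisense RNAs. SPNCRNA.1594 over rpl1801 rose from 0.670 and 0.300 to 20.2 and 6.76 CPM (5.20 ± 0.49) where the gene fell by 2.32 ± 0.55.

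Among opposite pairs with a falling antisense RNA, that at mag2 was the largest. The mag2 gene had 0.279 and 0.539 CPM in the reference, 3.43 in deficient and 6.75 and 22.8 in starved libraries (4.11 ± 0.53), so that the strand in excess switched. At ssd2 (succinate-semialdehyde dehydrogenase), SPNCRNA.706 fell from 12.6 and 14.9 CPM to 4.66 in deficient and 1.71 in both starved libraries (-3.12 ± 0.22, adjusted p = 5.3e-05, edgeR). The gene rose from 8.66 and 5.82 through 25.7 to 194 and 185 CPM (4.6 ± 0.32). The mutants were near the reference on both strands, at 9.83 to 13.0 CPM for the antisense RNA and 3.48 to 7.61 for the gene. SPNCRNA.926 at mug182 (NADHX epimerase), SPNCRNA.973 at hsp3105 (a glyoxalase of the ThiJ family) and SPNCRNA.645 at SPAC13C5.04 (an amidotransferase) fell by 2.82 ± 0.45, 2.76 ± 0.42 and 2.66 ± 0.23, and their genes rose by 3.11 ± 0.40, 4.97 ± 0.31 and 3.32 ± 0.34.

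In the same-direction group both strands rose most at SPCC191.10, described above, at 2 uncharacterized genes, at an esterase/lipase gene and at htr11, a serine protease gene. SPNCRNA.828 had 2.51 and 3.36 CPM in the reference and 143 and 140 in starved libraries (5.52 ± 0.36), while SPAC32A11.02c beneath it had 23.8 and 24.2 and then 587 and 851 CPM (4.79 ± 0.25). SPNCRNA.1364 rose by 3.78 ± 0.35 and htr11 by 4.59 ± 0.18. SPNCRNA.869 over the esterase/lipase gene SPAPB1A11.02 and SPNCRNA.1480 over SPBC16E9.20 rose by 5.64 ± 0.83 and 4.23 ± 0.72 with genes that rose by 6.36 ± 0.77 and 4.74 ± 0.36. The calls on SPNCRNA.869 and its gene were both lost without starved replicate 1. Both strands fell at pfl7 (gene -3.50 ± 0.32), at SPBPB10D8.02c, an arylsulfatase gene (SPNCRNA.1307, -3.48 ± 0.89; gene -4.42 ± 0.76), at alr2, an alanine racemase gene (SPNCRNA.1309, -2.82 ± 0.51; gene -4.10 ± 1.24, lost in 3 of 19 other settings, among them without starved replicate 1) and at mas5, a DNAJ chaperone gene (SPNCRNA.1409, -2.69 ± 0.45; gene -2.92 ± 0.27). Apart from SPNCRNA.1223, which covered its gene, and SPNCRNA.1307, which lay inside it, all of these RNAs ran over the 5′ end of the gene.

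Genes of carbon use were examined as a list of 52, of which 33 rose and 5 fell in starved medium with a median of 1.73. Antisense RNAs, 14 of them, lay over 12 of the 52. Of the 12 genes 8 rose and 0 fell. Of the 14 antisense RNAs 4 rose and 2 fell, with a median of -0.03 against 0.25 over all antisense RNAs. Calls on the antisense strand thus stood near the 27.5% and 18.6% of all antisense RNAs, while the list's own genes rose more often than the 20.1% of all features, neither of which was tested.

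The most strongly induced were ght6, a glucose and fructose transporter, and fbp1, fructose-1,6-bisphosphatase of gluconeogenesis. The ght6 gene had 0.670 and 0.360 CPM in the reference, 17.5 in deficient, 221 and 656 in starved and 34.1 to 124 in mutant libraries (9.56 ± 1.06). SPNCRNA.1118, which covered it, had 20.3 and 22.5 CPM in the reference, 10.5 in deficient and 9.84 and 2.14 in starved libraries (-1.77 ± 0.57, adjusted p = 0.031, edgeR), a call lost in 9 of 19 other settings. In the mutants it stayed at 17.8 to 29.8 CPM while the gene rose, so the gene was induced there with its antisense RNA at the wild type level. SPNCRNA.1324 covered fbp1 and had 15.6 and 14.8 CPM in the reference, 3.84 in deficient and 20.3 and 9.42 in starved libraries. Its change was -0.08 ± 0.43 (adjusted p = 0.88, edgeR) where fbp1 rose from 4.02 and 6.53 to 1380 and 1760 CPM (8.11 ± 0.38).

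At gut2, the mitochondrial glycerol-3-phosphate dehydrogenase of glycerol use, SPNCRNA.1235 changed by -0.26 ± 0.48 and the gene rose by 5.47 ± 1.12. At eno102 both strands rose. SPNCRNA.1302 had 10 and 12.1 CPM in the reference, 19.9 in deficient and 58.0 and 63.4 in starved libraries (2.11 ± 0.30, adjusted p = 0.00089, edgeR), and eno102 rose from 4.19 and 3.42 through 137 to 198 and 262 CPM (5.25 ± 0.92). Both strands also rose at cit1, citrate synthase, by 2.57 ± 0.50 for SPNCRNA.814 and 2.89 ± 0.28 for the gene. SPNCRNA.949 over sut1, a sucrose and maltose transporter, changed by 0.76 ± 0.12 while the gene rose by 4.37 ± 0.16. SPNCRNA.553 and SPNCRNA.662, which share reads over pyruvate decarboxylase pdc202, changed by -0.17 ± 0.32 and 0.02 ± 0.25. SPNCRNA.1697 inside the galactokinase gene gal1 changed by 0.78 ± 0.69.

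In 4 cases the list gene was not the partner with the longest overlap. SPNCRNA.1208, over the 5′ end of adh1 (alcohol dehydrogenase) and more of snp27, fell by 1.91 ± 0.64, a call lost in 9 of 19 other settings. SPNCRNA.979, over the 5′ end of gpd2 (glycerol-3-phosphate dehydrogenase), rose by 1.22 ± 0.16, a call lost with scaling by library totals. SPNCRNA.1648, over the 5′ end of pgi1 (glucose-6-phosphate isomerase), changed by -0.67 ± 0.23. SPNCRNA.1318 ran over the 3′ end of mal1, a maltase gene, and the 5′ end of ght4, and rose by 4.63 ± 0.32.

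Of 13 stress genes, 12 rose and 0 fell in starved medium, against 20.1% and 20.2% of all features. Antisense RNAs lay over 3 of these genes. Of those 3 RNAs 1 rose and 2 fell, against 27.5% and 18.6% of all antisense RNAs, which was not tested. At cta3, a P-type ATPase gene, the sense RNA had 6.76 and 5.04 CPM in the reference, 6.03 in deficient and 1480 and 1850 in starved libraries (8.22 ± 0.32). SPNCRNA.1374 inside it had 12.8 and 13.1, then 6.85, then 4.79 and 1.54 CPM (-1.90 ± 0.41, adjusted p = 0.0063, edgeR). Per kilobase it stood at 2.48 and 3.42 times the gene in the reference and at 0.00423 and 0.00109 of it in the starved libraries. Wrong-strand reads could contribute at that ratio, and their part was not tested. At ntp1, neutral trehalase, SPNCRNA.1327 fell by 1.78 ± 0.42 and the gene rose by 4.02 ± 0.24. SPNCRNA.1665, over cdc23 and the 5′ end of sro1, rose by 1.49 ± 0.40, with sro1 rising by 2.21 ± 0.22 and cdc23 falling by 1.10 ± 0.17. The call on SPNCRNA.1665 was lost in 2 of 19 other settings and that on cdc23 in 6, both among them without starved replicate 1.

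**Figure D5:**
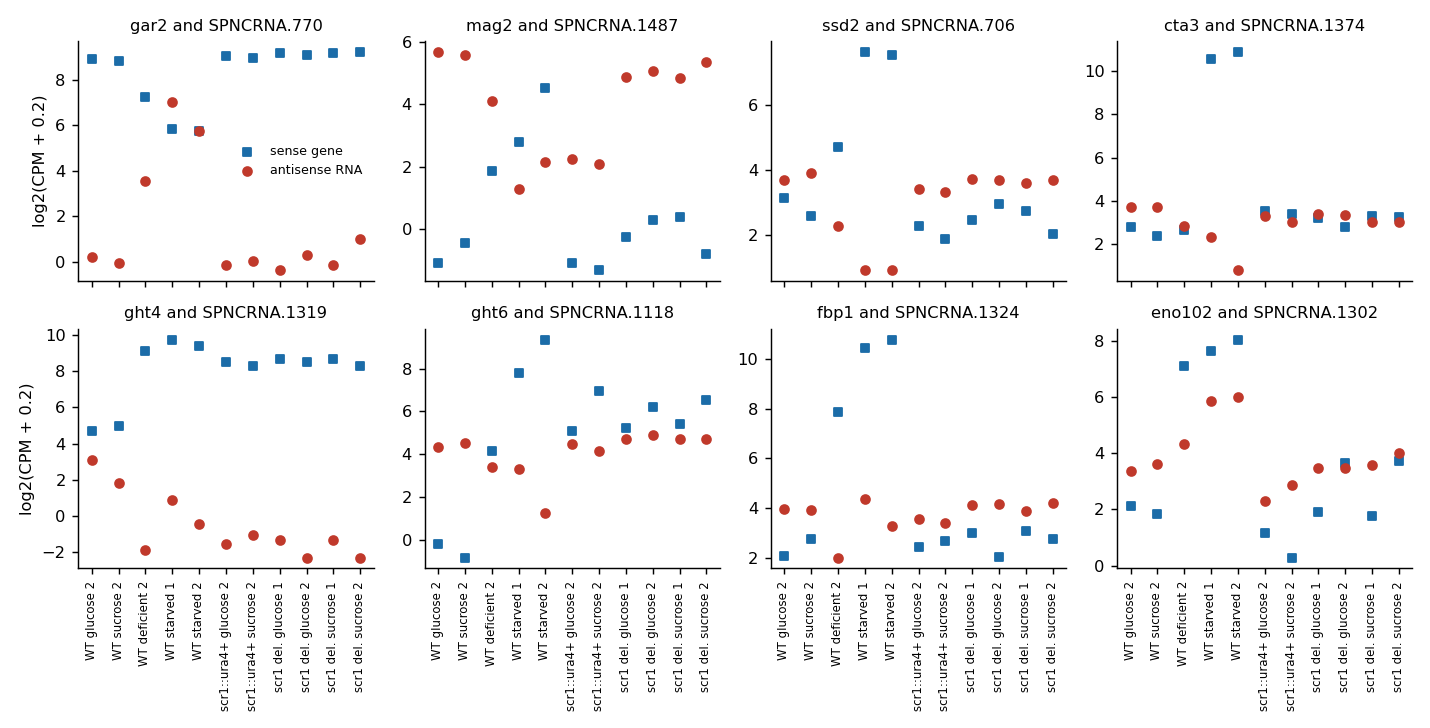
Level of the sense gene (blue squares) and antisense RNA (red circles) as log2(CPM + 0.2) in each of the 11 libraries at 8 loci. At mag2 the more abundant strand changes between sufficient and starved medium, at gar2 the strands meet in starved replicate 2 and cross in replicate 1, and at fbp1 the gene rises in starved libraries with no such change in the antisense RNA.

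Meiotic genes are the best known case of RNA removal in growing fission yeast cells, through Mmi1 and the exosome. Antisense RNAs lay over 34 of 144 genes carrying meiotic names (mug, meu, mde, mei, spo and rec). Of the 37 tested, 9 rose and 9 fell, with a median of -0.16, close to the 27.5% and 18.6% of all antisense RNAs, so the members named next do not stand for the list. SPNCRNA.1217 and SPNCRNA.583, which share reads over mug27, rose by 4.89 ± 0.36 and 4.84 ± 0.37, the former from 14.1 and 10.2 CPM to 454 and 331. SPNCRNA.1473 over spo14 rose from 1.79 and 2.04 to 68.7 and 30.7 CPM (4.78 ± 0.42), with the gene at -0.11. SPNCRNA.815 over mug68 rose from 40.5 and 29.9 to 207 and 174 CPM (2.32 ± 0.23) where the gene fell by 3.34 ± 0.80 but was at 1.26 CPM or less in all wild type libraries. A list of 36 genes for antisense control (exosome, RNA interference, histone deacetylation and remodelling) held 1 that rose and 3 that fell, fewer than the 20.1% and 20.2% of all features would give. Those were pht1, histone H2A.Z (1.04 ± 0.24), and mmi1 (-1.83 ± 0.20), rrp6 (-1.31 ± 0.14) and rrp4 (-1.11 ± 0.24), the first an RNA-binding remover of meiotic transcripts and the others exosome subunits. In the deficient library 5 fell, where 7.14% of all features did, among them rrp6 (-1.49, adjusted p = 0.0077, edgeR), and in the mutants 0 were called. Antisense RNAs lay over 7 of the 36, and 2 of these RNAs rose, near the 27.5% of all antisense RNAs, over hip1, a histone chaperone subunit gene, and cid14, a poly(A) polymerase gene. Their part in the antisense levels was not tested.

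In glucose-deficient medium antisense RNA fell rather than rose. With 1 library, 119 of 767 (15.5%) were lower and 17 (2.22%) higher than in glucose-sufficient medium, against 7.14% and 5.45% of all features. Among coding genes 5.14% were lower and 6.32% higher, and among non-coding RNAs clear of coding genes 17.3% and 3.46%. The median change was -0.63, or -0.54 with the 16 RNAs that had no count in the deficient library set at the floor, against -0.05 over all features. This comparison set a batch C library against batch B libraries and took the batch difference from other groups. Leaving out 1 library at a time, the number lower ran from 33 to 251 and the number higher from 5 to 37. The lone library was assumed to vary like the rest. Lower calls exceeded higher ones in each of these.

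A single library failed to overlap the reference for 43.9% of all features upwards and 46.0% downwards, so that the calls below rest on the fit. The largest falls included 2 RNAs with 0 counts in the deficient library. SPNCRNA.1617, over SPBC887.16, had 2.74 and 2.22 CPM in the reference and was at least 12.1-fold lower, taking the deficient library at 3 counts. SPNCRNA.691, inside atg22, a vacuolar amino acid transporter gene, had 1.40 and 4.32 CPM and was at least 13.9-fold lower. SPNCRNA.1673, over the 5′ end of abp2, an ARS-binding protein gene, had 20.1 and 15.2 CPM against 0.548 (-5.04 ± 0.60, adjusted p = 0.0057, edgeR). SPNCRNA.1277 in pep3, a vacuolar sorting gene, had 14.8 and 8.03 against 0.274 (-4.97 ± 0.93). The calls on SPNCRNA.1617 and SPNCRNA.1277 were lost without the disruption library in glucose. The rises other than SPNCRNA.770 were of few counts. SPNCRNA.1577 in taf51 had 0.447 and 0.899 CPM against 3.56 (3.94 ± 0.70, lost in 3 of 18 other settings, among them without the batch term) and SPNCRNA.1525 in psm1, of cohesin, 1.73 and 1.68 against 9.80 (3.46 ± 0.87, lost in 12 of 18 other settings). SPNCRNA.835 at myp2, a myosin, had 0.391 and 0.539 against 0.617 CPM, levels that hardly differed, so that its fitted rise of 3.59 ± 0.87 (lost in 9 of 18 other settings) rested on the batch term.

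The 2 glycerol media were compared directly, since each has a batch C library. Starved medium had 216 antisense RNAs higher (28.2%) and 44 lower (5.74%) than deficient medium, against 17.1% and 13.9% of all features. The shares were 13.4% and 16.1% among coding genes, and 37.4% and 8.49% among non-coding RNAs clear of them. The median difference was 0.83, or 0.82 with the RNAs absent from the deficient library at the floor, and 0.05 over all features. The sign within batch C was that of the fit for all 260 calls, starved replicate 2 against the deficient library. SPNCRNA.1108 at the 3′ end of mug135 had 0.0685 CPM in the deficient library, against 11.5 and 10.8 in starved libraries (7.25 ± 0.69, adjusted p = 0.0005, edgeR) and 1.79 and 0.600 in the reference. SPNCRNA.1123 and SPNCRNA.691, with 0 counts in the deficient library, were at least 36.7-fold and 12.4-fold higher in starved medium, and SPNCRNA.1346 over an N-acetyltransferase gene, SPBC1271.07c, at least 8.82-fold, a call lost without starved replicate 2. The largest falls were the pfl7 pair (-5.00 ± 0.28 and -4.99 ± 0.28), SPNCRNA.1139 (-3.85 ± 0.43) and SPNCRNA.668 over rsc58, of the RSC remodeller (16.3 against 0.918 and 1.71 CPM, -3.58 ± 0.38). Of all features 40.4% stood higher and 39.4% lower in starved medium with no overlap. Between these media, of the 761 loci 31 had a rising antisense RNA and a falling gene, and 5 had the reverse. At 40 both rose and at 15 both fell, so 36 were called in opposite directions and 55 in the same one.

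The last comparison asked whether loss of Scr1 changed antisense RNA while glucose or sucrose was present. In the 6 scr1- mutant libraries 20 of 767 (2.61%) were lower and 6 (0.782%) higher than in the 2 wild type libraries, against 0.835% and 1.12% of all features. Among protein-coding genes the lean was the other way, with 9 lower (0.176%) and 57 higher (1.11%), while among non-coding RNAs clear of coding genes 6.29% were lower and 1.89% higher. The median was -0.25, against -0.04 over all features. The sign within batch B, disruption against wild type, was that of the fit for all 26 calls. The number lower ran from 1 to 96 as single libraries were left out, was 1 without the disruption library in glucose and 92 or 96 without either starved library. The disruption alone gave 90 lower and 11 higher, and the deletion alone, for which the batch difference rests on the starved libraries, 67 lower and 137 higher. The deletion and its batch cannot be told apart.

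The steepest fall was at the hexose transporter gene ght4 (chrII:155751-159570). SPNCRNA.1319 (chrII:157362-158316), inside it, had 8.16 and 3.36 CPM in the wild type reference and between 0 and 0.273 in the 6 mutants, a total of 12 counts (-4.46 ± 0.69, adjusted p = 0.021, edgeR, lost in 7 of 21 other settings). It was low too in the deficient library, at 0.0685 CPM, and had 1.64 and 0.514 CPM in starved ones. Against the reference, the ght4 gene moved the opposite way, from 25.8 and 31.4 CPM to 310 to 416 in the mutants (3.67 ± 0.23), 552 in deficient and 864 and 690 in starved libraries. SPNCRNA.1319 was not called in starved against sufficient medium, however, and both strands were higher in the starved libraries than in the deficient one. On the same strand, SPNCRNA.1318 at the 5′ end of ght4 went up with the gene, from 3.35 and 7.73 CPM to 22.6 to 35.8 in the mutants (2.49 ± 0.29, adjusted p = 0.0074, edgeR, lost without the wild type glucose library), 33.1 in deficient and 158 and 104 in starved libraries. The pair of antisense RNAs at ght4 therefore moved in opposite directions in the mutants.

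A second locus carried 2 falling RNAs, SPNCRNA.1673 at abp2 (chrII:4130876-4133635) and SPNCRNA.1672 at cnp3 (chrII:4126318-4129456), adjacent genes transcribed away from each other. Cnp3 is a centromere protein of the CENP-C family. SPNCRNA.1673 had 20.1 and 15.2 CPM in the reference and 0.635 to 1.38 in the mutants (-4.32 ± 0.33, adjusted p = 0.0016, edgeR), and SPNCRNA.1672 had 4.41 and 6.53 against 0.257 to 0.883 (-3.11 ± 0.50, adjusted p = 0.024, edgeR, lost in 7 of 21 other settings). Both genes fell with them. The cnp3 gene had 100.1 and 96.8 CPM in the reference and 8.80 to 13.9 in the mutants (-3.27 ± 0.20), and abp2 had 93.5 and 74.6 against 16.7 to 30.8 (-2.15 ± 0.18). All 4 RNAs were called lower, with no overlap between mutant and wild type reference libraries, which was so for 17.4% of all features downwards and 15.2% upwards. The low level of SPNCRNA.1673 was not particular to the mutants, since it was also low in the wild type deficient library, as given above.

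SPNCRNA.1487 at mag2 had a different basis. It stood at 4.54 and 4.03 CPM in the disruption libraries, against 50.2 and 47.4 in wild type ones, but at 28.2 to 40.2 CPM in the 4 deletion libraries. Its fitted change of -3.18 ± 0.44 (adjusted p = 0.013, edgeR, lost in 7 of 21 other settings) thus came mainly from the disruption. SPNCRNA.1560, which covered rsv1, a transcription repressor gene, fell from 3.46 and 2.28 CPM to 0.0699 to 0.699 (-2.98 ± 0.50), while rsv1 rose by 5.09 ± 0.45. It was singled out after its values were seen, as were SPNCRNA.815, SPNCRNA.1217, SPNCRNA.583, SPNCRNA.1473 and SPNCRNA.1594. The largest rises were SPNCRNA.1223 (6.96 ± 0.75, adjusted p = 0.0056, edgeR), together with SPCC191.10 beneath it at 4.49 to 6.89 CPM against 0.168 and 0.180 (5.59 ± 0.89, a call lost in 10 of 21 other settings), and SPNCRNA.1558 (3.96 to 10.2 CPM, 3.26 ± 0.42). SPNCRNA.763 over sgt1, a snRNP-binding protein gene, rose by 2.07 ± 0.20, from 6.70 and 4.98 CPM to 21.8 and 25.2 in the disruption and 9.28 to 11.3 in the deletion, a call lost without the batch term and with the replicate block. SPNCRNA.1311 over pfl7 rose by 1.86 ± 0.19, to 40.3 to 62.0 CPM.

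No antisense RNA was called between sucrose and glucose, with 4 libraries of each. By the edgeR test 0 of 767 were called (0.0% of all features), 15 had an unadjusted p under 0.05 and DESeq2 also called 0. The median difference was 0.03. The effect of losing Scr1 was not called different between the media for any antisense RNA (0 of 767 by edgeR and 0 by DESeq2, 6 with an unadjusted p under 0.05).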

How the data were processed

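Libraries were made in 3 batches with Illumina TruSeq kits, unstranded for the first and stranded for the others. Per the labels, the authors trimmed reads with cutadapt (1.9.1), aligned them with TopHat2 (2.1.1) to ASM294v2 and counted them with featureCounts (1.5.2). The deposited values are raw counts per feature, not normalised, with reads on overlapping features and multiply mapped reads counted for each, so overlapping antisense RNAs are not independent. The count table gives positions, strand and exons, from which the antisense RNAs were chosen. Of its 7019 features, 6845 matched a RefSeq locus tag (ASM294v3), used for names and sequences only.

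Counts were fitted in edgeR 4.0.16 (R 4.3.3) with TMM scaling, filterByExpr (minimum count 10), 6 groups with both kinds of mutant pooled as the study did, and batch, leaving 4 residual degrees of freedom (common dispersion 0.039). Quasi-likelihood p-values were adjusted by the Benjamini-Hochberg method over all 6585 features tested. Errors are SE of the log2 fold change. Replicates were independent cultures per the study's methods, but each pre-culture was split across media, so p-values for the mutants may be too small. In the deletion libraries the replicate number marks the strain and so pairs glucose with sucrose (same-numbered deviations correlated at 0.353). Against starved wild type, another strain, the numbers pair nothing (-0.0553 and -0.0932). Levels are TMM-scaled CPM, and per kilobase where genes are compared. Counting intervals are exact at 95% and cover counting error only. Tested on simulated data for starved against sufficient medium (6504 features), the fit recovered 195 of 200 changed features (100 of 100 changed 4-fold) with 7 false calls. The changed features were drawn only from those above 50 counts, at the common dispersion and with no batch effect. These figures therefore do not cover RNAs of few counts or the part of the batch term.

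Named antisense RNAs followed a rule: the 8 largest rises and falls in starved medium and 4 in each other comparison, among those called with no overlap between libraries; the 5 pairs in each combination of directions with the largest lesser change; every RNA over the carbon and stress lists; and the 5 highest levels per kilobase. The antisense RNAs, lists and tests were chosen with earlier results of these data known. Alternatives covered scaling, DESeq2 1.42.0, the filter, batch, pairing, library sets and subsets of the antisense RNAs. The 5 unstranded libraries entered only as an alternative.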

Additional observations from a re-analysis of the deposited data

Results flagged for a closer look

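Antisense RNAs called in opposite directions in the 2 glycerol media, each against glucose-sufficient medium, were picked out where the difference between the media was itself called (edgeR quasi-likelihood test, adjusted p under 0.05). The deficient arm is 1 library. The last condition removed none of the RNAs, and the same count over all features is not given, so the numbers below are not set against a background. There were 11 that rose in starved and fell in deficient medium, and 2 that did the reverse. The log2 difference of starved over deficient medium was 7.25 for SPNCRNA.1108 and 3.38 for SPNCRNA.1109, both over mug135, 4.18 for SPNCRNA.1435 over mug93, and 4.09 and 4.13 for SPNCRNA.1490 and SPNCRNA.514, which share reads over rrb1, a WD repeat protein gene. It was 5.93 and 5.42 for SPNCRNA.911 and SPNCRNA.529 over dbl4, a ubiquitin ligase gene, 4.64 for SPNCRNA.1560 over rsv1, 2.60 for SPNCRNA.1616 over sur2, a sphingolipid hydroxylase gene, 2.93 for SPNCRNA.841 over ptf1, and 2.41 for SPNCRNA.813 over SPAC6C3.03c. SPNCRNA.911 had 4.75 and 4.44 CPM in glucose-sufficient, 0.274 in deficient and 20.9 and 15.8 in starved libraries. The pair that did the reverse, SPNCRNA.1311 and SPNCRNA.293 over pfl7, had differences of -5.00 and -4.99. No single library could be examined as an outlier, since no group of the study held 4 or more stranded libraries.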

How the results depend on the processing

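Of 112 results for named RNAs and genes, 77 kept their direction and side of the threshold under every alternative run. Antisense calls in starved medium ran from 148 to 271 higher and from about 1.2e+02 to 217 lower as single libraries were left out, the extremes for higher being without starved replicate 1 and without replicate 2. In deficient medium, where the main counts were 17 higher and 119 lower, those ranges were 5 to 37 and 33 to 251. DESeq2 gave 26 higher, glucose alone as reference 9 higher and 79 lower, library totals 8 higher, and all 16 libraries 55 lower. Between starved and deficient medium the ranges were 174 to 348 higher and 37 to 103 lower, and all 16 libraries gave 78 lower. In the scr1- mutants (6 higher, 20 lower) the ranges were 5 to 11 higher and 1 to 96 lower. DESeq2 gave 11 and 47, all 16 libraries 10 higher, glucose alone 6 lower, the disruption alone 11 and 90, the deletion alone 137 and 67, and RNAs alone on their strand 13 lower. A single direction reversed: SPNCRNA.1319 at ght4 changed by 1.19 in the mutants with all 16 libraries, against -4.46, where the unstranded libraries also count ght4 reads. With all 16 libraries the calls of SPNCRNA.1309 in starved medium, SPNCRNA.770 in deficient medium, SPNCRNA.691 in both comparisons of deficient medium and SPNCRNA.1558 in the mutants were lost. The cause of these shifts, the reversal of SPNCRNA.1319 among them, was not tested.

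Only the deletion libraries in glucose and sucrose are paired by their numbers, through the strain. With the replicate block in place of batch, 169 rose and 147 fell in starved medium, 14 and 110 in deficient medium, 181 and 37 between them and 6 and 23 in the mutants, and 0 were called between sucrose and glucose, also with a block by strain. Depth limited low RNAs, since between 33 and 101 of the 815 had 3 counts or fewer in a library.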
